A study of Mus musculus with 9 samples.

Results

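Tubulin transcripts were followed across cell classes of the mouse neocortex late in gestation (E18.5) and between wild-type (WT) and Tcf4 knockout (KO) animals. The 10 genes were chosen by name: the alpha-tubulins Tuba1a, Tuba1b, Tuba1c and Tuba4a, and the beta-tubulins Tubb2a, Tubb2b, Tubb3, Tubb4a, Tubb4b and Tubb5. They are 10 of the 17487 genes in the 9 libraries, and all 10 are listed in each library. No tubulin was among the markers that assigned cells to classes. The genes were chosen with earlier results of these data known.

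Alpha- and beta-tubulin pair into dimers, and the dimers polymerize into microtubules, which form the mitotic spindle of dividing cells and the tracks and scaffold of axons and dendrites in neurons. Each subunit is encoded by a family of genes, called isotypes, that differ mainly at the C-terminal tail and in where they are transcribed. In the developing cortex Tuba1a, Tubb2a, Tubb2b and Tubb3 are known as isotypes rich in postmitotic neurons, Tubb5 is made by progenitors and neurons alike, and mutations in Tuba1a, Tubb2b, Tubb3 and Tubb5 cause cortical and commissural malformations.

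Dissociated neocortices of 5 WT and 4 Tcf4 KO embryos had been sequenced, 1 library an animal, with a droplet method that counts the 3′ ends of transcripts by unique molecular identifiers (UMIs). All animals come from a line labelled Tcf4ex4WT/lacZ. KO animals carry on both alleles an inserted lacZ and neomycin cassette upstream of exon 4. It abolishes the longest TCF4 isoform, while a shorter isoform persists and 3′ reads do not separate them. The genotype comparison used WT replicates 2, 3 and 4 (WT2, WT3, WT4) against KO replicates 4 and 5 (KO4, KO5), and the other libraries are given beside it.

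The deposited libraries held 348105 to 29767293 UMIs, the 5 compared ones 3487769 to 29767293, and between 118 and 6173 cells a library were kept. Median depth of the kept cells was 2478, 3636 and 4359 UMIs in WT2 to WT4 and 2290 and 2217 in KO4 and KO5. Haemoglobin transcripts in kept cells averaged 5.39 to 8.51 UMIs per 10000 in WT2 to WT4, 32.0 in KO4, 71.9 in KO5 and 46.2 in the library labelled WT replicate 5 (WT5). Tcf4, the targeted gene, stood at 12.2, 12.6 and 12.2 UMIs per 10000 over all kept cells of WT2 to WT4 and at 9.29 and 7.59 in KO4 and KO5. The groups did not overlap (exact permutation test, two-sided p = 0.1, the smallest that 3 against 2 libraries can give). Tcf4 went against the labels elsewhere, with 7.20 in the library labelled WT5 and 4.65 in that labelled WT replicate 1 (WT1) against 16.7 in that labelled KO replicate 1 (KO1), and it was 9.12 in KO replicate 2 (KO2). Cells were assigned to a class, named with the ending -like, by the class of which they held most markers, and between 62.7% and 88.1% of the kept cells of a library held at least 2 markers of 2 classes. Within classes, Tcf4 was lower in KO4 and KO5 without overlap in upper layer-like, newborn neuron-like, intermediate progenitor-like, cycling progenitor-like and interneuron-like cells. In deep layer-like and radial glia or astrocyte-like cells the groups overlapped. In endothelial-like cells it was higher, at 6.63 and 7.92 in KO4 and KO5 against 5.55, 3.18 and 5.11 in WT2 to WT4. KO2 (11 cells) had 14.9 in upper layer-like cells, above WT2 to WT4. Libraries shared at most 46 cell barcodes.

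In GRCm38 coordinates, Tuba1a (15:98949837-98953703, minus strand), Tuba1b (15:98931425-98934565, minus) and Tuba1c (15:99029891-99038110, plus) lie within 106.7 kb of chromosome 15. Tubb2a (13:34074274-34078007, minus) and Tubb2b (13:34126748-34130466, minus) are neighbours on chromosome 13. Tuba4a (1:75214228-75219865, minus), Tubb3 (8:123411424-123422015, plus), Tubb4a (17:57080066-57087782, minus), Tubb4b (2:25222160-25224702, minus) and Tubb5 (17:35833921-35838306, minus) lie apart from them. All 10 are protein-coding genes with at most 4 exons in a transcript. Because the method counts transcript ends, reads fall in the last exon and 3′ UTR, where close paralogs can be confused. Of 411 words of 90 bases in the last 500 bases of the longest transcript, 214 of Tuba1a, 247 of Tuba1b and 267 of Tuba1c also occur in another gene, each other or pseudogenes. For Tubb2a 106 of the 411 words recur in Tubb2b or a pseudogene and for Tubb4b 52 in pseudogenes, and for Tuba4a, Tubb2b, Tubb3, Tubb4a and Tubb5 none did. Values of the first group are therefore less certain as values of a single gene.

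The 250 bases before the start of 4 of the genes are shown, from RefSeq on GRCm38.p6 and read on the gene's strand, because Tuba1b, Tubb4b and Tuba1c were higher and Tubb2a lower in cycling progenitor-like than in upper layer-like cells. Capitals mark CCAAT on either strand (written CCAAT or ATTGG), the core of a box common in promoters of mitotic genes, and TTTGAA on either strand, known from cell-cycle genes repressed at rest. Both motifs were searched with CANNTG, the E-box that TCF4 and other bHLH factors can bind, which is not marked.
Tuba1b, chr15:98934391-98934640, minus strand: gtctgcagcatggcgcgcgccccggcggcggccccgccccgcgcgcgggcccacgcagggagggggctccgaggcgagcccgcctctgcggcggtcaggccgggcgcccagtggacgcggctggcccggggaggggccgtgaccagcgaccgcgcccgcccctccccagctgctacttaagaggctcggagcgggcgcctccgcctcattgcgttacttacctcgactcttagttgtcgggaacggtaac
Tubb4b, chr2:25224703-25224952, minus strand: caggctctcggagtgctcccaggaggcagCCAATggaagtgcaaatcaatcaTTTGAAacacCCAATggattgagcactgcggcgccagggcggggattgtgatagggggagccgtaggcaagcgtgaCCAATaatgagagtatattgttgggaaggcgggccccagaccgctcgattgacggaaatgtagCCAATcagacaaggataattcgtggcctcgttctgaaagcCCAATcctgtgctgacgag
Tuba1c, chr15:99029641-99029890, plus strand: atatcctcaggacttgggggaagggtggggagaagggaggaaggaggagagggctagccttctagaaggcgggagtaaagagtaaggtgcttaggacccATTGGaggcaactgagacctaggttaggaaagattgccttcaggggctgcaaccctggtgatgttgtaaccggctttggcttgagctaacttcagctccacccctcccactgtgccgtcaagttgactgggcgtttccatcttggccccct
Tubb2a, chr13:34078009-34078258, minus strand: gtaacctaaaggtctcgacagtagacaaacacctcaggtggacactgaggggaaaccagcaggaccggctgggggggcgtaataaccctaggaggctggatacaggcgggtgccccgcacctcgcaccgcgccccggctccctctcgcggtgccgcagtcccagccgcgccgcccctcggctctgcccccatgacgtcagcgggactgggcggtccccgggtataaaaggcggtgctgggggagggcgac
The Tubb4b window holds 5 CCAAT matches and 1 TTTGAA, the latter overlapping its 1 CANNTG match. Of 32851 promoter windows of this length, 33.8% hold a CCAAT, 0.21% hold 5 or more, 16.0% hold TTTGAA and 66.2% hold CANNTG. The other 8 windows searched hold TTTGAA in none and CCAAT in those of Tuba1a (1), Tuba1c (1), Tubb3 (1) and Tubb5 (2). Tuba1b, which was higher in cycling progenitor-like than in upper layer-like cells, has 0 of either. Tuba1a and Tubb3, which were lower in cycling progenitor-like cells, have a CCAAT each. Tubb2b was not searched. Starts are those of RefSeq, and the gene spans above come from another annotation. By those spans, the windows of Tuba1b, Tuba1a, Tuba4a, Tubb3, Tubb4a and Tubb5 lie partly or wholly inside the gene. A match is a run of letters and not a shown binding site.

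In upper layer-like neurons of WT2 to WT4 the 10 tubulin genes together gave 254.9, 260.1 and 281.6 UMIs per 10000. Each UMI stands for 1 transcript end whatever its length. Comparisons between genes carry the paralog limit above, and whether genes are captured equally was not tested. Tuba1a, the main alpha-tubulin of growing neurons, was the most abundant, with 109.9, 125.8 and 137.0 UMIs per 10000. It made up 95.1%, 96.0% and 96.1% of the alpha-tubulin UMIs.

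Among the beta-tubulins the UMIs were spread over more genes. Tubb2b, a neuronal isotype linked to polymicrogyria, had 51.5, 44.1 and 58.8 UMIs per 10000. Tubb5, the broadly made isotype, had 48.0, 46.0 and 40.8, and Tubb3, the class III isotype used as a pan-neuronal marker, had 29.7, 31.5 and 28.3. Tubb2b and Tubb5 overlapped, and Tubb3 was below both in each library. Tubb2a, the close paralog of Tubb2b, had 7.29, 5.24 and 8.49.

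The remaining isotypes were sparse in these neurons. Tuba1b, an alpha-tubulin of dividing and many other cells, had 5.52, 5.08 and 5.47 UMIs per 10000, and the broadly made Tubb4b 1.63, 1.12 and 1.5. Tubb4a, best known from oligodendrocytes and mature neurons, had 1.29, 1.1 and 1.04. Tuba4a, a late alpha-tubulin that encodes no C-terminal tyrosine, had 0.132, 0.117 and 0.103, and Tuba1c 0.0415, 0.0123 and 0.0258, so that Tuba1c differences in neurons rest on few UMIs.

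Over the 9 classes with at least 10 cells in each of WT2 to WT4, the members fell into several orders. Tuba1a was highest in upper layer-like cells, at 124.2 ± 13.6 UMIs per 10000 (SD, n = 3), followed by newborn neuron-like (107.6), deep layer-like (105.2), interneuron-like (100.6) and Cajal-Retzius-like cells (93.5). Neighbours in that stretch overlapped between libraries. A gap without overlap separated Cajal-Retzius-like cells from radial glia or astrocyte-like (62.8), intermediate progenitor-like (57.0), cycling progenitor-like (52.8) and endothelial-like cells (30.4), which again overlapped one by one.

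Tubb3 also ran from neurons to endothelium, with sharper steps. Upper layer-like cells were highest, at 29.8 ± 1.59 UMIs per 10000 (SD, n = 3), with no overlap to deep layer-like cells (25.5), newborn neuron-like (25.2) and interneuron-like cells (24.4). Cajal-Retzius-like cells (19.6) stood alone, the 3 progenitor and glial classes lay between 12.5 and 11.4, and endothelial-like cells were lowest at 4.46. Tubb2b ran from 51.5 in upper layer-like to 10.5 in endothelial-like cells, but each class overlapped the next.

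Tubb5 had a different order. It was highest in cycling progenitor-like cells, at 47.0 ± 3.5 UMIs per 10000 (SD, n = 3), followed by upper layer-like (44.9), newborn neuron-like (44.5), deep layer-like (41.7) and interneuron-like cells (40.4). Each of these overlapped the next, while the cycling progenitor-like and interneuron-like ranges did not meet. Radial glia or astrocyte-like cells had 25.9 and, without overlap, endothelial-like cells 13.0.

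Cycling cells led in 2 alpha-tubulins. Tuba1b stood at 17.2 ± 0.97 UMIs per 10000 (SD, n = 3) in cycling progenitor-like cells, above the 8.64 of Cajal-Retzius-like cells, which in turn exceeded the 6.35 of radial glia or astrocyte-like cells. The lowest of the 9 was endothelial-like, at 4.05. Tuba1c was 0.810 in cycling progenitor-like cells with no overlap to the next class, endothelial-like, at 0.255.

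Cajal-Retzius-like cells, the Reln-marked neurons of the marginal zone, led in 3 beta-tubulins. Tubb2a was 14.7 ± 1.23 UMIs per 10000 (SD, n = 3) there, with no overlap to interneuron-like (8.33) or upper layer-like cells (7.01). Tubb4b was 5.09 ± 0.355, followed without overlap by cycling progenitor-like cells at 3.98 and then by radial glia or astrocyte-like cells at 1.61, and it was lowest in interneuron-like cells at 0.816. Tubb4a was 1.30 there and 1.14 in upper layer-like cells, which overlapped. Tuba4a reached at most 0.149, in newborn neuron-like cells, and no endothelial-like cell of WT2 to WT4 held a UMI of it.

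**Figure D1:**
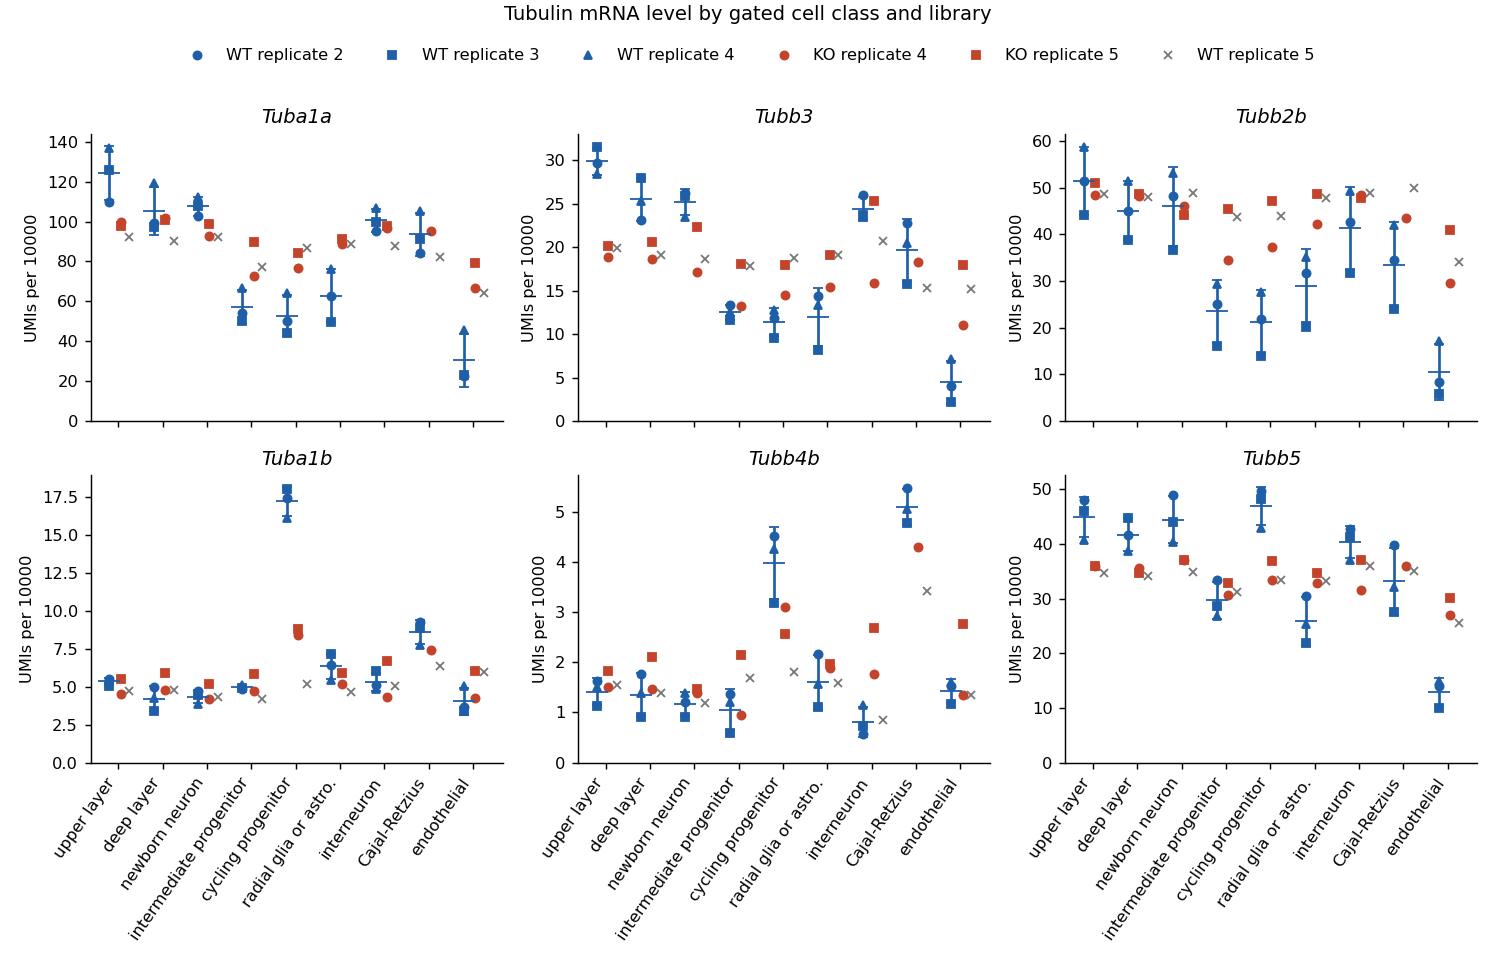
Mean UMIs per 10000 of 6 tubulin genes in 9 marker-gated cell classes. Points are libraries, bars are the mean of WT2 to WT4 with the SD, and crosses are WT5. Tuba1a, Tubb3 and Tubb2b are highest in the upper layer-like cells of WT2 to WT4, Tuba1b in cycling progenitor-like cells (17.2), and KO4, KO5 and WT5 lie closer together across classes than WT2 to WT4 do.

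Each of 4 classes was tested against upper layer-like cells within the same animals (WT2, WT3 and WT4, library as a block, limma on the log2 scale with a pseudocount of 1, Benjamini-Hochberg over 10182 genes). Of the 40 pairs of member and class, 16 passed an adjusted p of 0.05, and edgeR called 29. EdgeR also called far more of all 10182 genes than limma did. It called 5111 against 1609 in cycling progenitor-like and 4546 against 1331 in radial glia or astrocyte-like cells. In interneuron-like cells it called 895 against 352, and in deep layer-like cells 553 against 61. Differences below are the class minus upper layer-like cells on the log2(UMIs per 10000 + 1) scale, which understates the change of sparse genes.

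Cycling progenitor-like cells differed in 8 of the 10 members, where 15.8% of all genes tested did. The neuronal isotypes were lower. Tuba1a had 50.3, 44.1 and 64.2 UMIs per 10000 in cycling progenitor-like cells, below each upper layer-like value, a log2 difference of −1.23 ± 0.08 (SE, adjusted p = 7.8e-10). Tubb3 had 11.9, 9.55 and 12.7 (−1.32 ± 0.13, adjusted p = 2.9e-07), Tubb2b 21.9, 14.0 and 27.7 (−1.28 ± 0.08, adjusted p = 9.7e-10) and Tubb2a 3.20, 2.18 and 3.46 (−1.01 ± 0.10, adjusted p = 2.7e-07). None of these overlapped the upper layer-like levels of the same gene. Tubb4a was lower too, with −0.63 ± 0.14 (adjusted p = 0.004, and 0.11 without WT4).

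The other isotypes were higher in cycling progenitor-like cells. Tuba1b had 17.5, 18.0 and 16.2 UMIs per 10000 against at most 5.52 in upper layer-like cells, a log2 difference of 1.52 ± 0.11 (adjusted p = 3.2e-09). Tuba1c had 1.01, 0.658 and 0.760 (0.81 ± 0.07, adjusted p = 2.8e-08) and Tubb4b 4.51, 3.17 and 4.25 (1.04 ± 0.12, adjusted p = 4.3e-06). These 3 genes, with the Tubb2a that was lower, are those whose promoters are printed above. Tubb5, at 49.7, 48.3 and 43.0, differed by 0.06 ± 0.08 (adjusted p = 0.70) and Tuba4a by −0.11 ± 0.05 (adjusted p = 0.19), with edgeR calling Tuba4a lower. The median over the 10 members was −0.37, against −0.00 over all genes.

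The alpha-tubulin pool was accordingly made up differently. Tuba1a gave 73.0%, 70.2% and 79.1% of alpha-tubulin UMIs in cycling progenitor-like cells of WT2 to WT4, all below the 95.1% to 96.1% of upper layer-like cells, and Tuba1b gave 25.4%, 28.7% and 19.9%. Among the beta-tubulins, Tubb5 gave 54.2%, 62.3% and 47.0% in cycling progenitor-like cells and 34.4%, 35.7% and 29.4% in upper layer-like cells, again without overlap. Shares of a whole are not independent of each other.

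**Figure D2:**
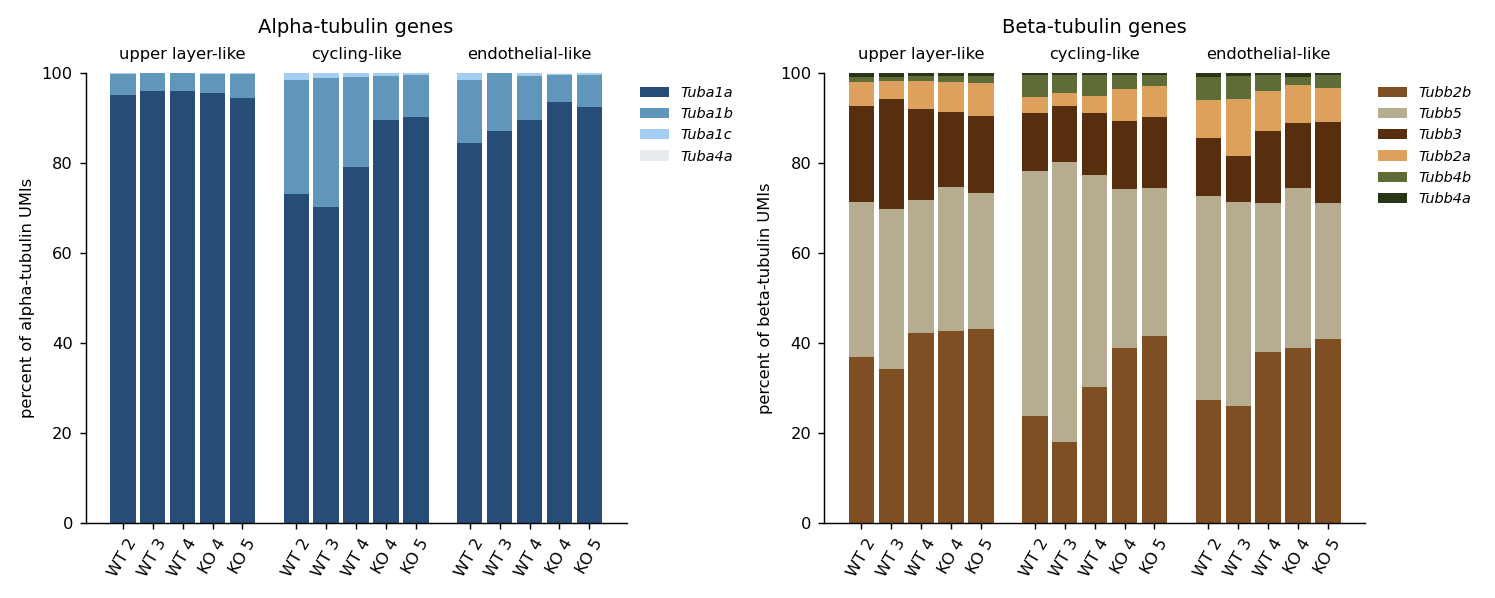
Share of alpha-tubulin UMIs (4 genes) and of beta-tubulin UMIs (6 genes), in percent, in upper layer-like, cycling progenitor-like and endothelial-like cells of WT2 to WT4, KO4 and KO5. Each stacked bar is a library. Tuba1a makes up 70.2% to 79.1% of alpha-tubulin UMIs in cycling progenitor-like cells of WT2 to WT4 and 89.6% and 90.2% in KO4 and KO5.

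Radial glia or astrocyte-like cells differed in 6 of 10 members, where 13.1% of all genes did, and all 6 were lower. Tuba1a had 62.5, 49.7 and 76.1 UMIs per 10000 there (−0.99 ± 0.08, adjusted p = 4.1e-08) and Tubb3 14.3, 8.12 and 13.4 (−1.29 ± 0.13, adjusted p = 9.2e-07). Tubb2b had 31.7, 20.2 and 35.1 (−0.83 ± 0.08, adjusted p = 8.1e-07). Unlike in cycling cells, Tubb5 was lower too, at 30.5, 21.9 and 25.4 (−0.78 ± 0.08, adjusted p = 5.9e-07). Tubb2a (−0.35, adjusted p = 0.022) and Tubb4a (−0.48, adjusted p = 0.032) were lower in the fit of 3 libraries but not without WT2 (adjusted p of 0.075 and 0.10) or WT4 (0.28 and 0.31). Tuba1b, Tuba1c, Tuba4a and Tubb4b lay between −0.11 and 0.20 and did not pass. The members' median was −0.41 and that of all genes 0.01.

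Of the other neuron classes, 2 were tested. Interneuron-like cells, which come from the ganglionic eminences, differed in 2 of 10 members, where 3.46% of all genes did. Tuba1a had 95.4, 99.6 and 106.9 UMIs per 10000 (−0.30 ± 0.08, adjusted p = 0.042), each lower than in upper layer-like cells of the same animal. Tubb2b had 42.7, 31.8 and 49.3 (−0.32 ± 0.08, adjusted p = 0.035). Neither passed without WT2 (adjusted p of 0.15 and 0.16) or WT4 (0.25 and 0.16). Tubb4b missed the threshold (−0.42, adjusted p = 0.073) and so did Tubb2a (0.23, adjusted p = 0.23).

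Deep layer-like cells, the earlier-born projection neurons, gave 0 of 10 members by limma, where 0.599% of all genes passed. At an unadjusted p under 0.05 limma had 4. EdgeR called 6 at an adjusted p of 0.05, where it called 553 of the 10182 genes and limma 61. Tubb4a, at 0.679, 0.495 and 0.807 UMIs per 10000 against 1.04 to 1.29 in upper layer-like cells, had −0.37 ± 0.14 (adjusted p = 0.81).

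Between genotypes, upper layer-like cells had no member past the threshold. Limma called 0 of 9 tested members (Tuba1c was too low), where 2.79% of all genes passed. At an unadjusted p under 0.05 it had 3 (Tuba4a, Tubb3 and Tubb4a), edgeR called 0 with 2 unadjusted, and DESeq2 called 1. The median of the members was −0.08 (KO minus WT, log2) and that of all genes −0.04.

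Tubb3 was the nearest to the threshold. Its levels were 29.7, 31.5 and 28.3 UMIs per 10000 in WT2 to WT4 and 18.8 and 20.2 in KO4 and KO5, so the groups did not overlap. The difference was −0.59 ± 0.14 on the log2 scale (adjusted p = 0.055). It passed with DESeq2 (adjusted p = 0.043), a pseudocount of 0.1 (0.046), summed UMIs (0.047), only cells without a second class (0.03), and without WT3 (0.049) or WT4 (0.023). The library labelled WT5 had 19.8, between KO4 and KO5, and WT1, KO1 and KO2 had 16.1, 15.2 and 19.5. With WT5 added to the WT group the difference was −0.45 (adjusted p = 0.73). With the replicate number as a block over 6 libraries it was −0.37 (adjusted p = 0.75).

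Tuba1a followed the same order without passing. It had 109.9, 125.8 and 137.0 UMIs per 10000 in WT2 to WT4 and 99.6 and 97.5 in KO4 and KO5, with no overlap (−0.32 ± 0.19, adjusted p = 0.32). The library labelled WT5 had 92.0, below both KO libraries. Tubb5, at 48.0, 46.0 and 40.8 against 36.0 and 35.9, had −0.31 ± 0.15 (adjusted p = 0.26). Tubb4a, at 1.29, 1.1 and 1.04 against 0.785 and 0.848, had −0.24 ± 0.08 (adjusted p = 0.15).

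Other neuronal isotypes overlapped between genotypes. Tubb2b was 48.3 in KO4 and 51.0 in KO5, inside the WT range (−0.04 ± 0.17, adjusted p = 0.91), and Tubb2a was 7.59 and 8.68 (0.21 ± 0.17, adjusted p = 0.48). Tuba1b had −0.08 ± 0.11 (adjusted p = 0.71), Tubb4b 0.15 ± 0.11 (adjusted p = 0.44) and Tuba4a −0.07 ± 0.03 (adjusted p = 0.21). The signs of the small Tubb2b and Tuba1b differences turned to 0.11 and 0.07 in edgeR with TMM scaling. The 10 members together gave 217.3 and 221.7 UMIs per 10000 in KO4 and KO5 and 211.0 in WT5, all below the 254.9 to 281.6 of WT2 to WT4.

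Markers of other classes differed in the same upper layer-like cells. The 8 radial glia or astrocyte markers summed to 5.36, 3.75 and 6.06 UMIs per 10000 in WT2 to WT4, to 13.8 and 15.3 in KO4 and KO5 and to 12.5 in WT5. All 8 were higher in both KO libraries than in every WT library compared, where 11.3% of all genes tested were. The 8 endothelial markers, of which 8 were likewise higher, summed to 0.232, 0.123 and 0.188 against 0.733 and 1.58, and to 1.38 in WT5. The upper layer markers themselves summed to 27.3, 21.7 and 26.4 against 24.3 and 22.3. The part of these markers in the tubulin values was not tested.

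Over all kept cells 0 of 9 members passed in limma, where 1.15% of all genes did, with 1 (Tubb3) at an unadjusted p under 0.05. EdgeR and DESeq2 also called 0, with 1 and 2 unadjusted. Tubb3 was 23.0, 23.7 and 23.2 UMIs per 10000 in WT2 to WT4 and 17.6 and 20 in KO4 and KO5 (−0.30 ± 0.12, adjusted p = 0.19). Tubb2a was at the other end, with 6.04, 4.24 and 7.58 against 7.47 and 8.42 (0.39 ± 0.20, adjusted p = 0.24). Mixed over all cells, such values also depend on how many cells each class holds.

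In interneuron-like cells 0 of 8 tested members passed in limma, where 0.702% of all genes did, with 1 (Tubb4b) at an unadjusted p under 0.05. EdgeR and DESeq2 called 0 with 1 unadjusted each. Tubb4b was 0.575, 0.720 and 1.15 UMIs per 10000 in WT2 to WT4 and 1.77 and 2.68 in KO4 and KO5, without overlap (0.83 ± 0.27, adjusted p = 0.14). Tubb3 overlapped, with 26, 23.7 and 23.5 against 15.9 and 25.3 (−0.27, adjusted p = 0.71). These libraries held 13 to 344 such cells.

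The genotype difference itself was compared between classes. Between upper layer-like and interneuron-like cells, Tuba1a was the 1 member of 8 past the threshold, where 0.684% of all genes were. Its KO minus WT difference in upper layer-like cells, less that in interneuron-like cells, was −0.28 ± 0.08 (adjusted p = 0.038). Interneuron-like cells had 96.99 and 97.98 UMIs per 10000 in KO4 and KO5, inside their WT range. The call was lost without WT4 (adjusted p = 0.54), KO4 (0.23) or KO5 (0.89) and with cells thinned to 1700 UMIs (0.35).

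Against radial glia or astrocyte-like cells, a comparison added after the data were seen, 5 of 8 members passed, where 11.7% of all genes did. Tubb3 had the largest difference among the members, −1.11 ± 0.32, but did not pass (adjusted p = 0.14). The KO minus WT difference was lower in upper layer-like cells for Tuba1a (−0.86 ± 0.16, adjusted p = 0.021), Tubb2b (−0.71 ± 0.10, adjusted p = 0.0014) and Tubb5 (−0.69 ± 0.10, adjusted p = 0.0016). It was also lower for Tubb4a (−0.36 ± 0.08, adjusted p = 0.013) and Tubb2a (−0.29 ± 0.08, adjusted p = 0.035), but Tubb4a did not pass without KO4 (0.13) or KO5 (0.22), nor Tubb2a without WT2 (0.057), WT4 (0.098), KO4 (0.34) or KO5 (0.30). In the glial class Tuba1a stood at 88.8 and 91.2 UMIs per 10000 in KO4 and KO5 and at 88.5 in WT5, above the 49.7 to 76.1 of WT2 to WT4. The radial glia or astrocyte markers of these same cells summed to 126.6, 182.6 and 118.2 in WT2 to WT4, and to 43.2, 35.96 and 29.0 in KO4, KO5 and WT5. Their part in the result was not tested.

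**Figure D3:**
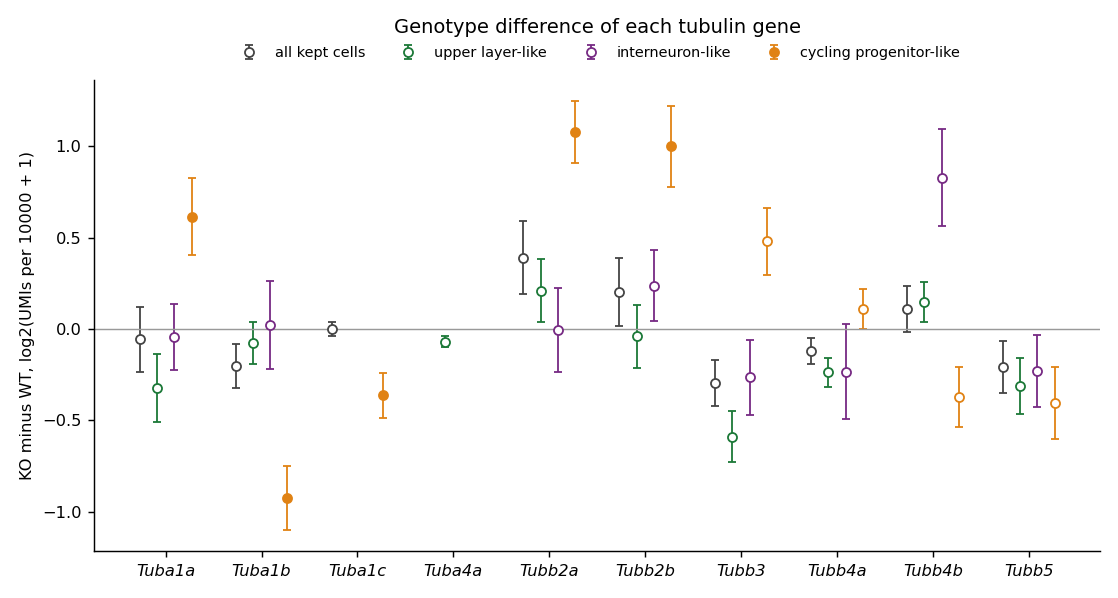
KO minus WT difference of each tubulin gene (log2 of UMIs per 10000 + 1, ± SE) between KO4 and KO5 and WT2 to WT4, in all kept, upper layer-like, interneuron-like and cycling progenitor-like cells. Filled points have an adjusted p under 0.05. Filled points appear only in cycling progenitor-like cells, where Tubb2a (1.07) is highest and Tuba1b (−0.92) lowest.

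Across the 6 further classes 12 member differences passed. In cycling progenitor-like cells 5 of 9 tested members did, where 13.8% of all genes did, and edgeR and DESeq2 each called 5. Tubb2a, Tubb2b and Tuba1a were higher in the KO. Tubb2a was 3.20, 2.18 and 3.46 UMIs per 10000 in WT2 to WT4 and 6.62 and 7.88 in KO4 and KO5 (1.07 ± 0.17, adjusted p = 2.6e-05). Tubb2b was 21.9, 14.0 and 27.7 against 37.2 and 47.0 (1.0 ± 0.22, adjusted p = 0.0027, and 0.066 without KO5). Tuba1a was 50.3, 44.1 and 64.2 against 76.6 and 84.4 (0.61 ± 0.21, adjusted p = 0.047), and did not pass without WT2 (0.10), WT3 (0.071), KO4 (0.17) or KO5 (0.38). For these genes KO4 and KO5 lay above each compared WT library. Tubb3, at 11.9, 9.55 and 12.7 against 14.5 and 17.9, did not pass (adjusted p = 0.071), nor did Tubb4a (adjusted p = 0.55).

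Of the 3 isotypes that were higher in cycling than in upper layer-like cells of WT2 to WT4, 2 were lower in the KO. Tuba1b was 17.5, 18.0 and 16.2 UMIs per 10000 in WT2 to WT4 and 8.41 and 8.80 in KO4 and KO5 (−0.92 ± 0.17, adjusted p = 0.00031). Tuba1c was 1.01, 0.658 and 0.760 against 0.485 and 0.327 (−0.36 ± 0.12, adjusted p = 0.044), and did not pass without WT2 (0.17), WT4 (0.056) or KO5 (0.30). For both genes KO4 and KO5 lay below each compared WT library. The other, Tubb4b, at 4.51, 3.17 and 4.25 against 3.10 and 2.55, did not pass (adjusted p = 0.13), nor did Tubb5 (adjusted p = 0.17). With edgeR and DESeq2 the adjusted p of Tuba1c was 0.082 and 0.18. The median of the members was 0.11 and that of all genes −0.04.

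The library labelled WT5 lay with the KO libraries in these cells. It had 5.16 UMIs per 10000 of Tuba1b, 86.6 of Tuba1a and 43.9 of Tubb2b. The library labelled KO1 lay nearer to WT2 to WT4, with 13.4 of Tuba1b, 38.7 of Tuba1a and 10.3 of Tubb2b. All 3 values were below each of WT2 to WT4. KO2 (16 cells) had 8.31 UMIs per 10000 of Tuba1b, just below KO4 (8.41) and KO5 (8.80). Its Tuba1a, at 53.7, lay inside the range of WT2 to WT4 (44.1 to 64.2). As a share of alpha-tubulin UMIs, Tuba1b was 13.3% in KO2. That share lay between KO4 and KO5 (9.84% and 9.41%) and WT2 to WT4 (19.9% to 28.7%). With WT5 in the WT group 0 members passed in cycling progenitor-like cells. With 6 libraries (replicates 2, 4 and 5 of each genotype) 0 passed either with or without the replicate number as a block.

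The class markers moved with these values. The 8 cycling markers summed to 56.9, 55.5 and 49.0 UMIs per 10000 in the cycling progenitor-like cells of WT2 to WT4 and to 22.8 and 19.9 in KO4 and KO5, with 16.2 in WT5, 41.5 in KO1 and 34.9 in KO2. All 8 were lower in both KO libraries than in every compared WT library, where 28.9% of genes tested were. The 8 upper layer markers in the same cells summed to 6.12, 4.43 and 4.64 in WT2 to WT4 and 11.2 and 11.1 in KO4 and KO5. Only 3 of them were higher in both KO libraries than in every compared WT library, and 1 was lower, so the list did not rise as a whole. The part of both marker lists in the tubulin differences was not tested.

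Endothelial-like cells, which line vessels and are no neurons, also gave 5 called members, where 5.16% of all genes passed, and all 5 were higher in the KO. EdgeR called 5 and DESeq2 4. Tubb3 was 4.0, 2.24 and 7.15 UMIs per 10000 in WT2 to WT4 and 11.0 and 18.0 in KO4 and KO5 (1.57 ± 0.24, adjusted p = 4.9e-08, and 0.085 with DESeq2). Tubb2b was 8.45, 5.78 and 17.2 against 29.5 and 40.9 (1.76 ± 0.23, adjusted p = 1.7e-11). Tuba1a was 22.5, 23.0 and 45.7 against 66.7 and 79.2 (1.31 ± 0.21, adjusted p = 2.9e-07). The groups did not overlap for any of these.

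Tubb5 was 14.0, 10.0 and 14.9 UMIs per 10000 against 27.0 and 30.1 (1.1 ± 0.23, adjusted p = 0.00013, and 0.15 without KO5). Tubb2a was 2.65, 2.82 and 4.01 against 6.26 and 7.53 (0.93 ± 0.25, adjusted p = 0.0079) and did not pass without WT2 (0.070), KO4 (0.068) or KO5 (0.45). The median of the members was 0.93, against −0.02 over all genes. These cells numbered 24, 13 and 47 in WT2 to WT4 and 94 and 25 in KO4 and KO5. With WT5 in the WT group 1 member (Tuba1a) passed.

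Set against the upper layer-like cells of the same library, the 10 members of endothelial-like cells summed to a ratio of 0.226, 0.187 and 0.342 in WT2 to WT4, of 0.677 and 0.836 in KO4 and KO5, of 0.726 in WT5 and of 0.271 in KO1. For Tubb3 the ratios were 0.135, 0.0709 and 0.252, then 0.586 and 0.891, with 0.767 in WT5 and 0.197 in KO1. WT5 thus lay with KO4 and KO5, and KO1 with WT2 to WT4. For cycling progenitor-like cells the sum had ratios of 0.629, 0.540 and 0.613, then 0.832 and 0.931, with 0.942 in WT5, 0.695 in KO1 and 0.597 in KO2. The 3 libraries nearest to 1 are those with 32.0, 46.2 and 71.9 haemoglobin UMIs per 10000. KO2 had 23.9, above the 5.39 to 8.51 of WT2 to WT4, but its ratio of 0.597 lay inside their range. KO1 had 3.58. Whether the ratios go with haemoglobin was not tested.

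Endothelial markers in endothelial-like cells summed to 119.3, 141.5 and 109.3 UMIs per 10000 in WT2 to WT4, to 49.8 and 40.7 in KO4 and KO5, to 38.7 in WT5 and to 65.8 in KO1. Of the 8, 7 were lower in both KO libraries than in each compared WT library, where 18.1% of genes tested were. The upper layer markers in these cells summed to 4.73, 4.56 and 7.61 in WT2 to WT4, to 12.9 and 12.2 in KO4 and KO5 and to 13.0 in WT5. Of those 8, 5 were higher in both KO libraries, where 15.1% of genes were, and none was at 0. The part of these markers and of haemoglobin in the tubulin differences was not tested.

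**Figure D4:**
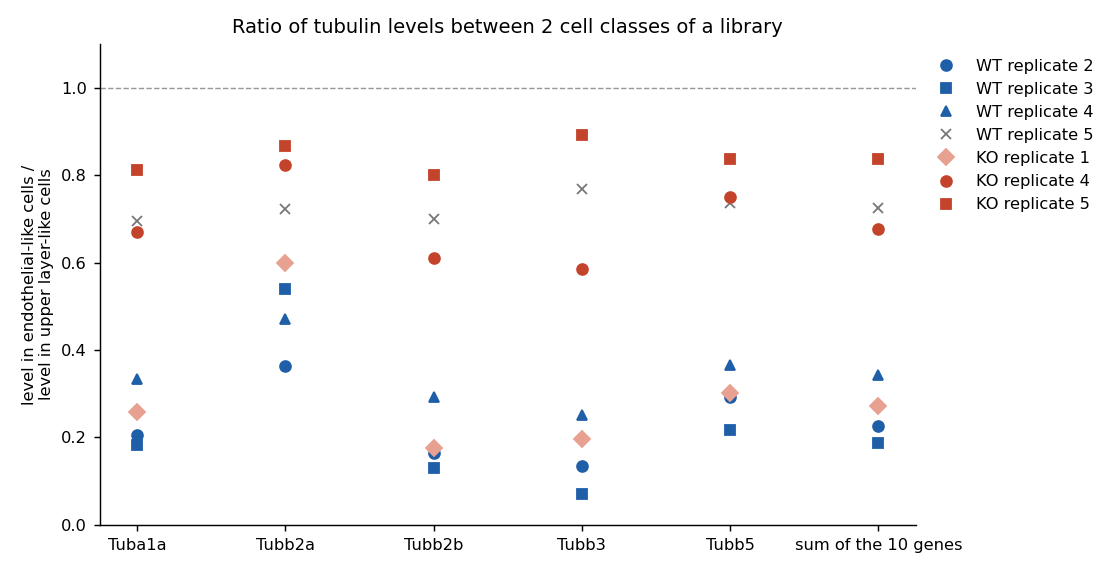
Level in endothelial-like cells divided by that in upper layer-like cells of the same library (ratio of mean UMIs per 10000) for 5 tubulin genes and the sum of the 10, in WT2 to WT5, KO1, KO4 and KO5. Points are libraries and the dashed line marks equal levels. The sum lies at 0.187 to 0.342 in WT2 to WT4 and KO1, and at 0.677 to 0.836 in KO4, KO5 and WT5.

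Intermediate progenitor-like cells, the Eomes-marked basal progenitors, gave 2 called members, where 1.87% of all genes passed; edgeR called 1 and DESeq2 0. Tubb2a was 2.97, 1.88 and 3.21 UMIs per 10000 in WT2 to WT4 and 5.81 and 8.53 in KO4 and KO5 (1.15 ± 0.22, adjusted p = 0.00068). Tubb2b was 25.0, 16.2 and 29.4 against 34.5 and 45.4 (0.77 ± 0.21, adjusted p = 0.039), and did not pass without WT3 (0.34) or KO5 (0.35). Both genes were separate between groups, and with WT5 added neither passed (0.28 and 0.34). The markers of these cells summed to 29.2, 30.2 and 25.0 in WT2 to WT4, and to 18.9 (KO4) and 14.4 (KO5). The members' median was 0.29 and that of all genes −0.07.

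The last 3 classes gave none by limma. In radial glia or astrocyte-like cells 0 of 9 members passed, where 6.24% of all genes did, with 4 at an unadjusted p under 0.05, and edgeR and DESeq2 called 3 each. In deep layer-like cells 0 of 9 passed, where 0.555% did, with 1 unadjusted, and edgeR and DESeq2 called 0 with 3 and 0 unadjusted. In newborn neuron-like cells 0 of 9 passed, where 1.44% did, with 1 unadjusted, and edgeR and DESeq2 called 0 with 1 unadjusted each. The members' medians were 0.38, 0.12 and −0.12, and those of all genes −0.05, −0.04 and −0.05.

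Genes that fold, modify and bind tubulin were read alongside. The lists held the other tubulins (5 of 10 genes listed in the files), 13 folding cofactors and prefoldin subunits, the CCT chaperonin (7 of 8 listed), 17 modifying enzymes, 3 factors of tubulin mRNA autoregulation and the 4 stathmins, proteins that bind tubulin dimers. In upper layer-like cells 0 of 39 tested list genes passed between genotypes in limma, with 11 at an unadjusted p under 0.05, and edgeR and DESeq2 called 0 with 3 each. Over all kept cells 0 of 39 passed as well, with 11 unadjusted, against 0 with 5 in edgeR and 0 with 6 in DESeq2. No CCT subunit passed in any limma comparison.

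List genes that passed between genotypes were mostly stathmins. In endothelial-like cells all 4 were higher in KO4 and KO5, Stmn2 by 1.70 (2.82, 2.69 and 7.81 UMIs per 10000 in WT2 to WT4, 13.4 and 17.3 in KO4 and KO5), Stmn3 by 1.65, Stmn1 by 1.17 and Stmn4 by 1.08. These were the 4 of 38 list genes called there, where 5.16% of all genes were. In cycling progenitor-like cells Stmn2 (0.93), Stmn4 (0.92) and Stmn3 (0.82) were higher, as was Tubg2 (0.24), while its gamma-tubulin paralog Tubg1 was lower (−0.39). With Stmn1 not called, these were 5 of 40 list genes, no larger a share than the 13.8% of all genes. Stmn2 was also the 1 call among 40 list genes in intermediate progenitor-like cells (1.32), where 1.87% of all genes were called. In radial glia or astrocyte-like cells it was again the 1 call among 40 (1.1), a share below the 6.24% of all genes. Ttll1, a polyglutamylase subunit, was the only list gene called in newborn neuron-like cells (−0.61, adjusted p = 0.045), where 1.44% of all genes were called.

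Between classes in WT2 to WT4, 12 of 42 list genes differed between cycling progenitor-like and upper layer-like cells, where 15.8% of all genes did. All 4 stathmins were lower, from −0.32 (Stmn1) to −1.60 (Stmn4). Svbp (−0.70) and Vash2 (−0.46), which act together to remove the terminal tyrosine of alpha-tubulin, and the alpha-tubulin acetyltransferase Atat1 (−0.66) were lower too. Of the folding factors Tbcb (−0.30) and Pfdn4 (−0.32) were lower and Vbp1 (0.34) higher, Scaper was lower (−0.37), and Tubg1, of the spindle-nucleating gamma-tubulin ring, was higher (0.38). In radial glia or astrocyte-like cells 7 of 42 were lower, near the 13.1% of all genes, namely the 4 stathmins with Pfdn4, Vash2 and Svbp. In interneuron-like cells 1 of 42 was, Ttll7 (−0.25), where 3.46% of all genes differed. No UMI of Ttll7 was found in such cells of WT2 (26 cells) and WT3 (13 cells). Its scaled level was 0.175 in WT4 (344 cells), against 0.215, 0.260 and 0.295 in upper layer-like cells of WT2 to WT4. That call therefore rests on few UMIs. In deep layer-like cells 0 passed in limma, with 2 unadjusted, and edgeR called 1.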

How the data were processed

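Single-cell RNA-seq libraries of 5 WT and 4 Tcf4 KO E18.5 neocortices (10x 3′ v2) were used. The authors aligned reads to mm10 (GRCm38), and the submitters' processing notes name Cell Ranger 2.1.0, R 3.6.0 and Seurat 2.3.4. WT4, WT5, KO4 and KO5 were deposited as UMI counts. WT1, WT2, WT3, KO1 and KO2 were deposited as natural log values, ln of UMIs scaled to 10000 a cell plus 1, and 100.0% of values returned whole UMIs within 1e-06. All columns mapped to a sample. The authors' limits (1000 to 5000 genes, 1800 to 10000 UMIs, under 6% mitochondrial) were reapplied, and cells over 1% haemoglobin UMIs removed (0.42% to 1.34% in WT2 to WT4, 13.9% in KO4, 40.4% in KO5). The study kept libraries of over 500 cells and left out a WT animal whose Tcf4 was low, which leaves WT2 to WT4 and KO4 and KO5. Nothing was imputed.

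Cells went to the class with most markers (at least 2 of 8), ties by marker UMIs, and 4.02% to 14.5% stayed ungated. No doublet caller was run. Values are means per library of UMIs per 10000, from at least 10 cells. Markers of oligodendrocyte lineage included 1 not listed in the files. Genes at 0.1 or more in 2 libraries were fitted with limma-trend with robust variances on log2(value + 1), Benjamini-Hochberg adjusted over all genes tested. EdgeR, DESeq2 and other settings were alternatives. The members, lists and named genes (the 10 members everywhere, called list genes, and the 3 genes most correlated with Tuba1a, Tubb3 and Tubb5 over classes) were chosen with earlier results of these data known. The p-values measure the spread between animals of 1 library each.

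Deviations from group means correlated between libraries of the same number (0.683, 0.363 and 0.528 for numbers 2, 4 and 5 over all kept cells, 1149 genes, and 0.470, 0.252 and 0.419 in upper layer-like cells). KO4 correlated more with WT5 (0.384 and 0.284) than with WT4, so the pairing is a hint from the data alone. A block was fitted over those 6 libraries. Fits were tested on simulated data. Gene positions come from GENCODE vM21. Python 3.11.15, scanpy 1.11.5, R 4.3.3, limma 3.58.1, edgeR 4.0.16 and DESeq2 1.42.0 were used.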

Additional observations from a re-analysis of the deposited data

Results flagged for a closer look

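In 40 groups of 4 or 5 libraries looked at (each gene in all kept and in upper layer-like cells, by label), 2 held a library far from the others, and chance alone gives about 1 in 20. Both were the library labelled KO1. In upper layer-like cells it had 73.4 UMIs per 10000 of Tuba1a, lowest of the 4 KO libraries, with a gap to the next of 0.838 of their range. Over all kept cells it had 27.6 of Tubb5, with a gap of 0.924. It is not among the compared libraries.

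The genotype difference (KO minus WT, log2) differed between classes by a test of the difference itself in 6 cases. The difference in upper layer-like cells less that in interneuron-like cells was −0.28 for Tuba1a. Less that in radial glia or astrocyte-like cells it was −0.86 for Tuba1a, −0.71 for Tubb2b, −0.69 for Tubb5, −0.36 for Tubb4a and −0.29 for Tubb2a.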

How the results depend on the processing

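Leaving out 1 library at a time gave 0 to 1 called members in upper layer-like cells, 0 to 1 for the difference against interneuron-like cells, 3 to 6 for that against radial glia or astrocyte-like cells, 11 to 16 for the class contrasts and 6 to 17 over the 6 further classes. In upper layer-like cells 1 member passed with DESeq2, a pseudocount of 0.1, summed UMIs or cells without a second class. The difference against interneuron-like cells gave 0 with thinned cells. The class contrasts gave 29 with edgeR and 2 in KO4 and KO5 only, against 16. Over all genes, edgeR called 553 to 5111 a contrast, against 61 to 1609 in limma. The 12 calls of the further classes fell to 7 with no filter on low values, 1 with WT5 added and 0 with all libraries as labelled. The replicate block over 6 libraries gave 0 in cycling progenitor-like cells, as did those libraries with no block. In upper layer-like, radial glia or astrocyte-like and all kept cells it called no member either, and it could not be fitted in the other classes, where KO2 has too few cells, so the calls in endothelial-like and intermediate progenitor-like cells have no paired value. The cause of these changes was not tested.

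Signs turned as follows (KO minus WT, log2, none called). Tuba1b in upper layer-like cells was 0.070 with edgeR TMM, 0.066 with edgeR RLE, 0.065 with DESeq2 and 0.051 with TMM-scaled limma, and ran from −0.20 to 0.044 with 1 library left out (the last without KO4). Tubb2b there was 0.11 with edgeR TMM, 0.10 with edgeR RLE and DESeq2, 0.11 with TMM-scaled limma and 0.052 in Leiden clusters, and ran from −0.15 to 0.057 with 1 library left out (the last without WT4). Tubb2a there was −0.14 in the 6 libraries with or without the block and −0.39 with all libraries, and over all kept cells −0.070 and −0.30. Tubb3 in interneuron-like cells ran from −0.59 to 0.054, the last without KO4. Of the class contrasts in KO4 and KO5 only, Tubb5 in cycling progenitor-like cells was −0.031 and Tubb4b in interneuron-like cells 0.26. Tcf4 (KO minus WT, UMIs per 10000) was −3.89, −2.61 with WT5 added and 0.90 with all libraries as labelled. Of the other member differences, 600 were rated the same as in the main fit, 119 weaker and 12 stronger.

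Genes called ranged widely, from 98 over all kept cells to 0 without WT2 and 1394 without WT4, and from 231 in upper layer-like cells to 0 with the block and 829 without WT4. The block also took the 564 of radial glia or astrocyte-like cells to 0. In cycling progenitor-like cells they went from 1203 to 0 in the 6 libraries and to 1350 with no haemoglobin limit. TMM scaling in limma moved the higher and lower calls from 425 and 778 to 608 and 535 in cycling progenitor-like, from 168 and 396 to 460 and 321 in radial glia or astrocyte-like, from 187 and 44 to 338 and 29 in upper layer-like, from 84 and 39 to 105 and 15 in newborn neuron-like, from 74 and 90 to 30 and 11 in intermediate progenitor-like and from 40 and 22 to 41 and 13 in interneuron-like cells. EdgeR moved them from 225 and 259 to 228 and 163 in endothelial-like cells. The median of all genes went from −0.03 to −0.15 in interneuron-like cells with edgeR and from −0.07 to −0.19 in intermediate progenitor-like cells with DESeq2. Stricter gates, the block or Leiden clusters left too few cells in some classes and were not run there. Depth limits Tuba1c and Tuba4a, which average under 1 UMI per 10000 in each class.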

Other observations

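Across the 9 classes of WT2 to WT4, the genes whose mean levels ran most like those of 3 members were found among 1594 genes, as a description over points that share libraries and depth. For Tuba1a they were Gm1673 (Pearson r = 0.987), Nbea (0.986), an anchoring protein of membrane traffic, and Nsg1 (0.985), of neuronal endosomes. Nsg1 ran from 9.60 UMIs per 10000 in upper layer-like to 1.33 in endothelial-like cells. For Tubb3 they were Dpysl5 (0.992), of the collapsin response mediator family, Cdk5r1 (0.992), the activator of the neuronal kinase Cdk5, and Gm1673 (0.984). Dpysl5 ran from 2.23 to 0.301 over the same classes.

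For Tubb5 they were Stmn1 (0.971), Hn1 (0.964) and Vdac3 (0.947), a channel of the outer mitochondrial membrane. Stmn1 ran from 93.6 UMIs per 10000 in upper layer-like to 20.9 in endothelial-like cells, and Hn1 from 19.4 to 4.81. Endothelial-like cells were lowest for each of the 8 genes named here, as for the 3 members whose course over classes selected them.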
